A study of Mus musculus with 6 samples.

Results

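The transcripts described here encode subunits of respiratory complexes II, III, IV and V and cytochrome c. They were listed by gene symbol, with earlier results of these data known. The symbols (Sdha to Sdhd, Uqcr genes, Cyc1, Cycs, Cox4 to Cox8 genes and Atp5 genes) gave 50 of the 55401 rows in the gene table. Of these rows, 4 belonged to complex II, 9 to complex III, 1 to cytochrome c, 18 to complex IV and 18 to complex V. The 7 rows with "-ps" in the name (pseudogenes) were left out, and none of them exceeded a normalized count of 6.21 in any library.

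The RNA came from myotubes of C2C12, a mouse myoblast line that fuses into multinucleated muscle fibres in low-serum medium. One group of 3 cultures received GL2 siRNA, a control siRNA (called control below). In the other 3 cultures the siRNA targeted SENP7, which cleaves the small protein modifier SUMO off its targets (called SENP7 siRNA below). Each siRNA was used at 100 pmol for 3 days, and the series' design text calls the 3 samples per condition biological replicates. The study's title names sarcomere assembly and muscle atrophy as its subject. All 6 libraries come from this 1 line in culture, not from muscle tissue.

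The respiratory chain moves electrons from metabolic fuels to oxygen in the inner mitochondrial membrane. Complex II (succinate dehydrogenase) feeds electrons from succinate into the membrane, complex III passes them to cytochrome c, and complex IV (cytochrome c oxidase) hands them to oxygen, while complex V (ATP synthase) uses the proton gradient so formed to make ATP. Nuclear genes encode all of complex II and cytochrome c and most subunits of the other complexes, and a few subunits of complexes III, IV and V are encoded in mitochondrial DNA. Heart and skeletal muscle replace some common subunits of complex IV by muscle forms (Cox6a2, Cox7a1 and Cox8b in the mouse), a switch that accompanies muscle differentiation.

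The libraries held between 25223218 and 30865945 reads assigned to genes. Senp7, the siRNA target, had a mean normalized count of 607 ± 46.9 (SD, n = 3) in controls and 300.3 ± 40.2 (n = 3) with SENP7 siRNA. All 8 markers of differentiated myotubes were expressed, and their summed normalized count lay between 527425 and 544863 in controls and between 573447 and 655415 with SENP7 siRNA. Among these 8 markers 3 rose (Ckm, Mymk and Actn2, the last a call lost without SENP7 replicate 1) and 0 fell. In these 3 and in Myh3, Tnnt3 and Myog every SENP7 siRNA library lay above every control library, against 19.3% of all genes tested. The log2 fold changes (SENP7 siRNA relative to control) were 1.00, 0.45 and 0.45 for Ckm, Mymk and Actn2. They were 0.35, 0.30 and 0.28 for Myh3, Tnnt3 and Myog, which did not pass the test. Acta1 (0.16) and Des (-0.20) overlapped between groups. Over all genes tested, 10.2% were called higher and 10.7% lower. Markers of undifferentiated or cycling myoblasts summed to between 6126 and 8069 in controls and between 5860 and 7132 with SENP7 siRNA, with 1 of 6 higher (Pax7, a call lost without control replicate 2). Of 4 fibroblast markers, 2 could be tested and 1 rose (Dpt, a call lost when any 1 library other than control replicate 3 was left out), the 3 adipocyte markers together reached no more than 3.21 in any library, and the 3 macrophage markers summed to between 38.3 and 57.9 in controls and between 40.7 and 49.7 with SENP7 siRNA. Nearly all of that sum was Cd68 (46.3 ± 9.81 in controls, 45.0 ± 4.10 with SENP7 siRNA), which did not pass the test, while Adgre1 was at 0 and Ptprc had no more than 1.11 in any library. The part that a shift in myotube markers has in the values below was not tested. In RNA from whole cultures, fewer expressing cells and less RNA per cell cannot be told apart.

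Of the 50 rows, 44 could be tested, since they reached a normalized count of 10 in 3 or more libraries. The lowest value of a tested subunit in any library was 102, so no subunit entered the test through 1 group alone. The subunits that rose did so mostly by small steps, and 27 of the 44 did not pass the test. The median log2 fold change (SENP7 siRNA relative to control) was 0.22, against -0.0025 over all 14668 genes tested, and 42 of the 44 values were above 0 (95.5%, against 49.5% of all genes). By limma with Benjamini-Hochberg adjustment over all genes tested, 17 subunits rose (38.6%), against 10.2% of all genes tested called higher. None of the 44 fell, against 10.7% of all genes called lower; at an unadjusted p below 0.05, limma gave 23 higher and 0 lower, and neither edgeR nor DESeq2 on the recovered reads called any subunit lower, where they called 10.3% and 10.5% of all genes lower. The authors' deposited table called 18 of these subunits higher at its own adjusted p below 0.05, the same 17 and Atp5b. Of its 27493 genes with an adjusted p, 4.45% were called higher. These include genes of low count that the limma filter left out, so this share is not comparable with the 10.2%. With no filter on low values, limma called 19 subunits higher, against 5.72% of 27493 genes.

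Only 1 of the 17, Cox7a1, changed by more than 2-fold. In 22 of 44 subunits every SENP7 siRNA library lay above every control library, against 19.3% of all genes tested. The other 5 of these 22 (Sdhc, Cox5a, Atp5b, Atp5g2 and Atp5l) did not pass the test. Together the 50 rows took 0.765%, 0.711% and 0.657% of the normalized counts in the controls (replicates 1, 2 and 3) and 0.858%, 0.862% and 0.818% with SENP7 siRNA (replicates 1, 2 and 3). All 3 SENP7 siRNA libraries exceeded all 3 controls, with a ratio of means of 1.19. By complex the same ratio was 1.27 for complex II, 1.23 for complex III, 1.27 for cytochrome c, 1.18 for complex IV and 1.17 for complex V.

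**Figure D1:**
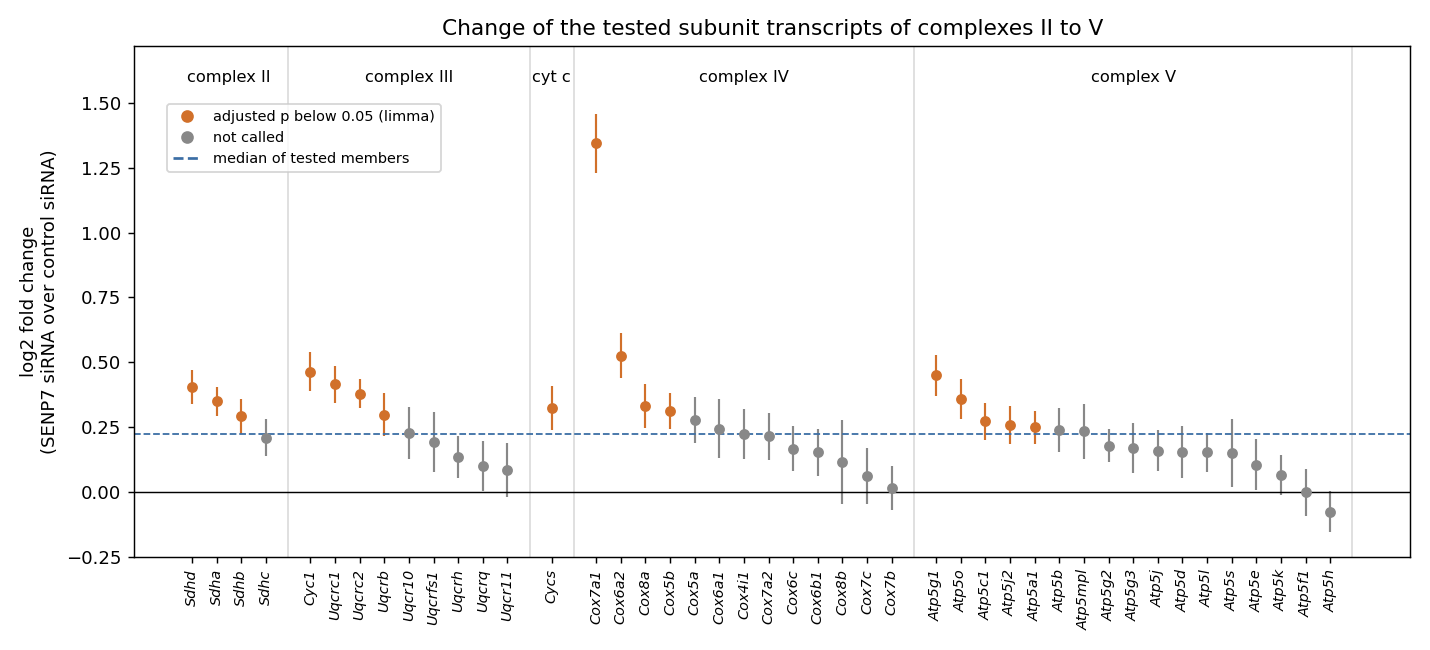
Log2 fold change with SENP7 siRNA relative to control (vertical axis, with the standard error from limma) for each of the 44 tested subunits, ordered within its complex (horizontal axis). The 17 subunits with an adjusted p below 0.05 are orange, the dashed line is the median of 0.22, and Cox7a1 at 1.34 stands above all others.

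The number of calls depended on single libraries. When control replicate 2 or either of SENP7 replicates 1 and 2 was left out, limma called 8 of the 44 subunits in each case, where 6.06%, 5.14% and 4.94% of all genes were called higher. These were the same 8 each time, namely Sdha, Sdhd, Cyc1, Uqcrc1, Uqcrc2, Cox7a1, Cox6a2 and Atp5g1, and they kept an adjusted p below 0.05 in each of the 15 alternatives run. The other 9 (Sdhb, Uqcrb, Cycs, Cox5b, Cox8a, Atp5a1, Atp5c1, Atp5j2 and Atp5o) had adjusted p between 0.0605 and 0.144 in those 3 fits. Without SENP7 replicate 3, Cox8a and Atp5c1 also missed the threshold and 15 calls were left (6.69% of all genes). Without control replicate 1 there were 24 calls (8.27% of all genes).

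Complex II is the one complex of this set that is built from nuclear genes alone. Of its 4 subunits 3 rose, and the groups did not overlap in any of the 4. The median log2 fold change was 0.32.

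Sdha encodes the flavoprotein that oxidises succinate (chromosome 13, 74322254 to 74350280, GRCm38). It had normalized counts of 7386, 7473 and 7205 in the controls (replicates 1, 2 and 3) and 9425, 9223 and 9453 with SENP7 siRNA (replicates 1, 2 and 3). The libraries of a group lay close together, and each SENP7 siRNA library was above each control. The mean rose from 7355 ± 137 to 9367 ± 126 (SD, n = 3 each), a log2 fold change of 0.35 ± 0.06 (SE, limma adjusted p = 0.00328). Sdhd, 1 of the pair of membrane anchors, had 2972, 2661 and 2567 in the controls and 3578, 3585 and 3673 with SENP7 siRNA. Control replicate 1 was the highest control and still below all SENP7 siRNA libraries. Its log2 fold change was 0.40 ± 0.07 (limma adjusted p = 0.00336). Sdhb, the iron-sulfur subunit, rose by 0.29 ± 0.07 (limma adjusted p = 0.0157). Sdhc, the other membrane anchor, had 4304, 4093 and 3639 in the controls and 4737, 4684 and 4464 with SENP7 siRNA. These groups did not overlap either, but the step from the highest control to the lowest SENP7 siRNA library was small, and the log2 fold change of 0.21 ± 0.07 did not pass the test (limma adjusted p = 0.0722).

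The promoters of Sdha and Sdhd are shown because they hold the letters bound by NRF1, a transcription factor known for its sites in respiratory genes. Each is the 250 bases before the RefSeq transcription start on GRCm38.p6, written on the gene's own strand. Capitals mark matches to the NRF1 letters (GCGCA and GCGC with 1 base of any kind between them) or to CCGGAAG or its reverse complement CTTCCGG (ETS factors such as GABP), both strands having been searched.
Sdha, chr13:74350241-74350490, minus strand: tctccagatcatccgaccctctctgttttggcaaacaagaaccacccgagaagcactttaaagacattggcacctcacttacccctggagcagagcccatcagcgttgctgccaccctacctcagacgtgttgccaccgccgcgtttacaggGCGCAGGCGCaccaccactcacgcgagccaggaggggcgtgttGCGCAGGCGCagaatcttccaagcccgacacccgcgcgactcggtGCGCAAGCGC
Sdhd, chr9:50603850-50604099, minus strand: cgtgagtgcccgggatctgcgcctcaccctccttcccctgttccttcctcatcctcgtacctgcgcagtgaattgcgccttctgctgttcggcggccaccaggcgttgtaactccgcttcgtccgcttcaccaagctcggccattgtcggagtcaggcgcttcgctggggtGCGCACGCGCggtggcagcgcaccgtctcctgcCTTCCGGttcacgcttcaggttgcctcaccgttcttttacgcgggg
Sdha held 3 matches to the NRF1 letters, at 98 to 89, 55 to 46 and 10 to 1 bases before the start. Sdhd held 1 match to the NRF1 letters (79 to 70) and 1 to the ETS letters (46 to 40).

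Complex III passes electrons through cytochrome c1, cytochrome b and the Rieske protein, held by core proteins and small subunits. Of 9 subunits tested, 4 rose, with a median log2 fold change of 0.23. In the group of core and redox subunits 3 of 4 rose (median 0.40), and in the group of small subunits 1 of 5 (median 0.14). The difference between these groups was not tested.

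Cyc1 encodes cytochrome c1, which passes electrons on to cytochrome c (chromosome 15, 76343523 to 76346260). It had 5223, 4969.8 and 4317 in the controls (replicates 1, 2 and 3) and 6711, 6587 and 6650.1 with SENP7 siRNA (replicates 1, 2 and 3). The SENP7 siRNA libraries were nearly level with one another, and control replicate 3 was the lowest of all. The log2 fold change was 0.46 ± 0.08 (limma adjusted p = 0.0035). Uqcrc2, a core protein of the matrix side, had 3605, 3686 and 3458 in the controls and 4762, 4716 and 4501 with SENP7 siRNA. No control reached any SENP7 siRNA library, and the log2 fold change was 0.38 ± 0.06 (limma adjusted p = 0.00222). Of its exon length 19.7% is overlapped by Pdzd9 on the opposite strand, and the strand setting of the counting is not given in the sources used here. Its partner Uqcrc1 rose by 0.41 ± 0.07 (limma adjusted p = 0.00424), and Uqcrb, a small subunit, by 0.30 ± 0.08 (adjusted p = 0.0351).

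The Rieske iron-sulfur protein Uqcrfs1 did not pass the test (0.19 ± 0.12, limma adjusted p = 0.283), nor did Uqcr10 (0.23), the hinge protein Uqcrh (0.14) or Uqcrq (0.10). The largest adjusted p of the complex belonged to Uqcr11, a small peripheral subunit. Its normalized counts were 3407, 2933 and 2523 in the controls and 3192, 3251 and 2887 with SENP7 siRNA. Control replicate 1 was the highest of all 6 libraries, so that the groups overlapped, and the log2 fold change of 0.08 ± 0.10 (limma adjusted p = 0.614) turned to -0.03 without control replicate 3.

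Cycs encodes the somatic form of cytochrome c, the small carrier between complexes III and IV. It had 1758, 1684 and 1418 in the controls and 2043, 2097 and 1916 with SENP7 siRNA. The lowest SENP7 siRNA library lay above the highest control. The log2 fold change was 0.32 ± 0.09 (limma adjusted p = 0.0276), and it was 1 of the 9 calls lost in the 3 fits named above.

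In complex IV, Cox7a1 and Cox6a2, both muscle forms, rose most, and the third muscle form, Cox8b, did not pass the test. Of its 13 tested subunits 4 rose, with a median log2 fold change of 0.22: 2 of 3 muscle forms, 1 of their 3 common forms and 1 of the other 7 common subunits. Forms typical of other tissues were at or near 0. Cox4i2, known from lung, had 3 reads in all 6 libraries together, Cox7b2 had 6 and Cox6b2 had 10. Cox8c had 0 of 165448732 reads, which allows a share of up to 1.81e-06% (3 counts, counting error only). Cox6c2, annotated as a processed pseudogene, had 43 reads.

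Cox7a1 encodes the muscle form of subunit 7a (chromosome 7, 30184144 to 30186078, GRCm38). It had normalized counts of 102, 111 and 102 in the controls (replicates 1, 2 and 3) and 272, 242 and 293 with SENP7 siRNA (replicates 1, 2 and 3). Every SENP7 siRNA library was more than 2-fold above every control, and SENP7 replicate 2 was the lowest of its group. The mean rose 2.56-fold, from 105 ± 5.37 to 269 ± 25.6 (SD, n = 3 each), with a log2 fold change of 1.34 ± 0.11 (limma adjusted p = 0.000141). Its common counterpart Cox7a2 had 2793, 2536 and 2143 in the controls and 2871, 2956 and 2789.8 with SENP7 siRNA. Control replicate 1 and SENP7 replicate 3 were nearly level, with the control slightly higher, and the log2 fold change of 0.21 ± 0.09 did not pass the test (limma adjusted p = 0.133).

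Within each library, the log2 ratio of Cox7a1 to Cox7a2 was -4.76, -4.50 and -4.38 in the controls and -3.39, -3.61 and -3.25 with SENP7 siRNA. The groups did not overlap. The mean ratio was higher with SENP7 siRNA by 1.13 on the log2 scale, or 2.19-fold, with p = 0.1 in a two-sided exact permutation test, the smallest that 3 against 3 libraries can give, and 0.3 after adjustment over the 3 ratios tested. Per exon length, Cox7a1 made up 6.04%, 7.19% and 7.76% of the sum of both forms in the controls and 14.3%, 12.6% and 15.6% with SENP7 siRNA. The muscle form was the minor form of the pair in all 6 libraries.

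Cox6a2 encodes the muscle form of subunit 6a (chromosome 7, 128205435 to 128206387). It had 829.5, 812 and 896 in the controls and 1291, 1301 and 1070.5 with SENP7 siRNA. All SENP7 siRNA libraries were above all controls, with SENP7 replicate 3 the nearest to them. The mean rose 1.44-fold (log2 fold change 0.52 ± 0.09, limma adjusted p = 0.00367). Of its exon length 10.3% is overlapped by Itgad on the opposite strand. The common form Cox6a1 had 3259, 2692 and 2257 in the controls and 3243, 3238 and 3128 with SENP7 siRNA. Control replicate 1 was slightly above all SENP7 siRNA libraries, and the log2 fold change of 0.24 ± 0.11 did not pass the test (limma adjusted p = 0.168).

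The log2 ratio of Cox6a2 to Cox6a1 was -1.97, -1.73 and -1.33 in the controls and -1.33, -1.32 and -1.55 with SENP7 siRNA. Control replicate 3 lay among the SENP7 siRNA libraries, so the groups overlapped. The difference of 0.28 had p = 0.2 in the two-sided exact permutation test (0.3 adjusted over the 3 ratios). It was 0.13 without control replicate 1 and 0.45 without control replicate 3. The muscle form held 24.5% ± 4.19 of the pair per exon length in controls and 28.2% ± 1.80 with SENP7 siRNA (SD, n = 3 each).

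Cox8b encodes the muscle form of subunit 8 (chromosome 7, 140898945 to 140900446). It had 489, 514 and 368 in the controls and 569, 524 and 394 with SENP7 siRNA. Replicate 3 was the lowest of both groups, and the groups overlapped. Its log2 fold change of 0.12 ± 0.16 did not pass the test (limma adjusted p = 0.655) and turned to -0.03 without control replicate 3. For the common form Cox8a the values were 2659.9, 2382 and 2098 in the controls and 3021, 3038 and 2878 with SENP7 siRNA, with no overlap. Cox8a rose by 0.33 ± 0.08 (limma adjusted p = 0.0243). The log2 ratio of Cox8b to Cox8a was -2.44, -2.21 and -2.51 in the controls and -2.41, -2.53 and -2.87 with SENP7 siRNA, which overlapped. Its difference of -0.21 had p = 0.4 in the two-sided exact permutation test (0.4 adjusted) and was -0.08 without SENP7 replicate 3. No test between the 3 pairs was run.

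**Figure D2:**
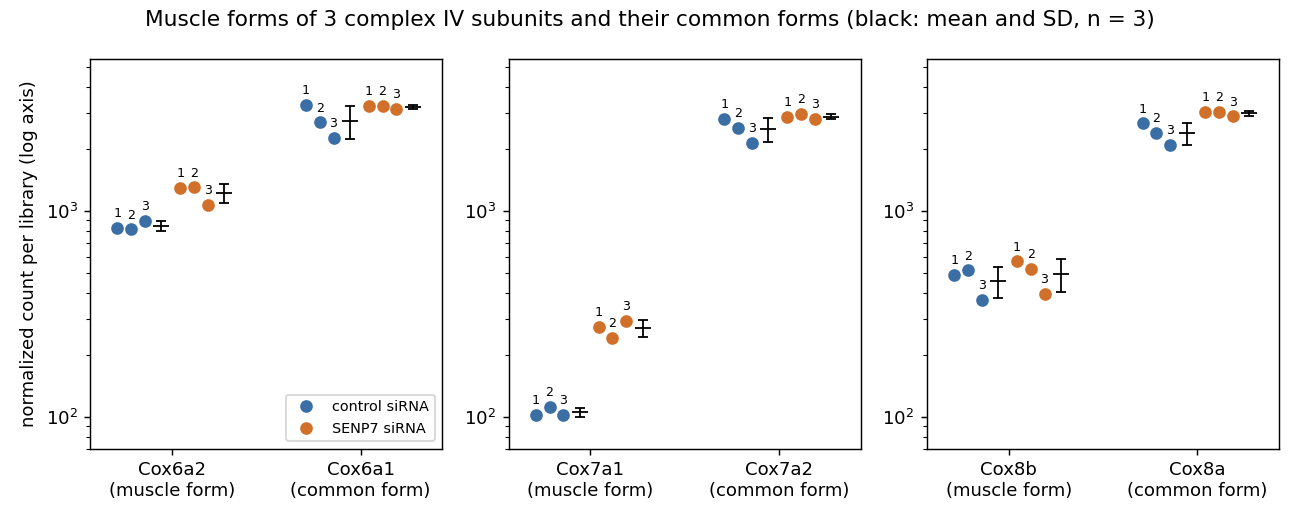
Normalized counts (log axis) of the muscle forms Cox6a2, Cox7a1 and Cox8b and of their common forms in each library, with replicate numbers above the points and the mean and SD (n = 3) in black beside them. The Cox7a1 points of the 2 groups are far apart (102 to 111 against 242 to 293), while those of Cox8b overlap.

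The promoters of Cox7a1, Cox8b and Cox6a1 are shown to set the muscle form with the largest rise beside a muscle form and a common form that did not pass the test. Cox6a1 is the common form whose window held matches, and it is the partner of neither muscle form shown. Cox7a2, the partner of Cox7a1, did not pass the test either. The windows are the 250 bases before the RefSeq start on GRCm38.p6, each on its gene's strand. Capitals mark CAGCTG (the myogenic E-box, the letters preferred by MyoD and myogenin), the NRF1 letters or the ETS letters, as above.
Cox7a1, chr7:30183921-30184170, plus strand: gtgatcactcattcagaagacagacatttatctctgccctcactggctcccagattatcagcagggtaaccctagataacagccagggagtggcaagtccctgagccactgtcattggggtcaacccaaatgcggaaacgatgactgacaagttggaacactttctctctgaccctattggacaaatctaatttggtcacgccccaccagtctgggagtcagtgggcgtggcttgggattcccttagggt
Cox8b, chr7:140900447-140900696, minus strand: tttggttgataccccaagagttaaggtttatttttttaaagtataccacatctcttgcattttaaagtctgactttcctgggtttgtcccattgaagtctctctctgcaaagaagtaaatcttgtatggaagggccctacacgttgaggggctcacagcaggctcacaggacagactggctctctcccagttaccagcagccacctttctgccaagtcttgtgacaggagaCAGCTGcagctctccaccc
Cox6a1, chr5:115348959-115349208, minus strand: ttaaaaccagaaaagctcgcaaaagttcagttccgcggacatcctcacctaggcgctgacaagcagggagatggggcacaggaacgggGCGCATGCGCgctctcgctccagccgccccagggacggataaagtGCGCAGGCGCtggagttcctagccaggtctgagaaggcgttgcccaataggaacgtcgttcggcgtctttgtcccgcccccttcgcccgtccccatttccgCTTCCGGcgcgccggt
The Cox7a1 window held none of these letters and no MEF2 box (CTA and TAG with 4 bases of any kind between them), and neither did those of Cox7a2 and Cox8a. Cox8b held the E-box 19 to 14 bases before its start. Cox6a1 held 2 matches to the NRF1 letters (162 to 153 and 117 to 108) and 1 to the ETS letters (16 to 10). The G and C content of the windows was 51.2% for Cox7a1, 47.2% for Cox8b and 62.8% for Cox6a1, and 61.6% and 64.4% for Sdha and Sdhd.

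RefSeq promoter entries matched 32 of the 44 tested subunits, Cox6a2 not among them. The NRF1 letters stood in 7 of these 32 (21.9%), against 3.74% of all 32851 promoter windows of the same length. Those 7 were Atp5c1, Atp5g2, Atp5h, Atp5k, Cox6a1, Sdha and Sdhd. The ETS letters stood in 9 of 32 (28.1%), against 6.91% of all windows, the E-box in 2 (6.25%, against 13.0%) and the MEF2 box in 1 (Cox5b, 3.12%, against 3.20%). Among subunits that rose, 3 of 12 with an entry held the NRF1 letters and 1 of 12 the ETS letters. Among those that did not pass the test, the counts were 4 of 20 and 8 of 20. A subunit with several windows was counted when any of them matched, whereas the shares of all windows count each window singly. Atp5c1 (NRF1 letters) and Atp5j (ETS letters) each had a window with a match and a window without. The windows of all genes were not matched to the subunits for G and C content or for expression. The part that these have in the shares was not tested. A match describes the letters of a window and not a bound site.

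Of the remaining complex IV subunits, Cox5b rose by 0.31 ± 0.07 (limma adjusted p = 0.0134). Its neighbour in the structure, Cox5a, had a log2 fold change of 0.28 ± 0.09 and no overlap between groups but missed the threshold (limma adjusted p = 0.0596). Cox4i1, the common form of the large nuclear subunit, had 10809, 9632 and 8428 in the controls and 11503, 11689.7 and 10376 with SENP7 siRNA. Control replicate 1 lay above SENP7 replicate 3, and the log2 fold change was 0.22 ± 0.10 (limma adjusted p = 0.138). Cox6b1, which faces the intermembrane space, had 4424, 4089.8 and 3516 in the controls and 4641, 4562 and 4127 with SENP7 siRNA, again with overlap (0.15 ± 0.09, limma adjusted p = 0.267). Cox6c (0.17) and Cox7c (0.06) did not pass the test. Cox7b had the largest adjusted p of the complex. Its values were 3610.4, 3557 and 3066 in the controls and 3634, 3583 and 3118 with SENP7 siRNA, almost level between same-numbered libraries (0.01 ± 0.09, limma adjusted p = 0.924), and the log2 fold change turned negative (-0.06 to -0.02) when control replicate 3, or either of the first SENP7 siRNA libraries, was left out.

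ATP synthase had 5 rises among 17 tested subunits and the smallest median of the complexes, 0.17. The rises were spread over its parts: 2 of 5 subunits of the F1 head (Atp5a1 and Atp5c1), 1 of 3 genes for the c ring (Atp5g1), 1 of 4 of the peripheral stalk (Atp5o) and 1 of 4 accessory membrane subunits (Atp5j2). Both values below 0 among all 44 subunits belonged to the peripheral stalk. A further row named Atp5o had 0 reads, and all of its exon length is shared with other genes.

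In the catalytic head, Atp5a1 (alpha) rose by 0.25 ± 0.06 (limma adjusted p = 0.0254) and Atp5c1 (gamma, the central shaft) by 0.27 ± 0.07 (adjusted p = 0.0271). Atp5b, the catalytic beta subunit, had the highest level of all 44 per exon length. Its normalized counts were 46559, 45521 and 39962 in the controls and 52707, 51937 and 50667 with SENP7 siRNA. The groups did not overlap, but the log2 fold change of 0.24 ± 0.08 missed the threshold in limma (adjusted p = 0.0797). Atp5d (0.15) and Atp5e (0.10) did not pass the test.

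Subunit c, which forms the rotating ring, is encoded by the 3 genes Atp5g1, Atp5g2 and Atp5g3, whose mature proteins are identical. Atp5g1 (chromosome 11, 96068852 to 96075670) had 3184, 2794 and 2557 in the controls and 3959, 3889 and 3761 with SENP7 siRNA. All SENP7 siRNA libraries were above all controls, and the log2 fold change was 0.45 ± 0.08 (limma adjusted p = 0.00524). Atp5g2 had 1930.2, 1926 and 1792 in the controls and 2161, 2228 and 2003 with SENP7 siRNA, without overlap (0.18 ± 0.06, limma adjusted p = 0.0797). Atp5g3 had 9812, 9275 and 7675 in the controls and 10199.9, 10442 and 9310.1 with SENP7 siRNA, with overlap (0.17 ± 0.10, limma adjusted p = 0.257). Per exon length Atp5g1 made up 10.3%, 9.52% and 10.2% of the sum of the 3 genes in the controls and 11.9%, 11.5% and 12.3% with SENP7 siRNA, again without overlap. On this scale Atp5g1, the gene that rose, had the lowest level of the 3 in all 6 libraries. That order rests on the annotated exon lengths (4912 bases for Atp5g1 and 1675 for Atp5g2), since the normalized counts of Atp5g1 were above those of Atp5g2 in every library.

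In the peripheral stalk, Atp5o encodes the protein that ties the stalk to the head. It had 3323, 2913 and 2811 in the controls and 3955, 4034 and 3592 with SENP7 siRNA, without overlap. Its log2 fold change was 0.36 ± 0.08 (limma adjusted p = 0.0127). Of its exon length 35.6% is overlapped by genes on the opposite strand and 12.3% by the other Atp5o row, so part of its count is uncertain. Atp5f1 (subunit b) had 7791, 7159 and 6179 in the controls and 7136, 7346 and 6560.1 with SENP7 siRNA. The groups overlapped fully, and the log2 fold change of -0.0010 ± 0.09 had the largest adjusted p of the set (0.996, limma). Atp5h (subunit d) had 4184, 3839.4 and 3553 in the controls and 3779, 3826 and 3369.6 with SENP7 siRNA. Its highest value was a control and its lowest a SENP7 siRNA library, with a log2 fold change of -0.08 ± 0.08 (limma adjusted p = 0.535). Atp5j, the coupling factor, did not pass the test (0.16). Among the accessory membrane subunits, Atp5j2 rose by 0.26 ± 0.07 (limma adjusted p = 0.0363), and Atp5mpl (0.23), Atp5l (0.15) and Atp5k (0.06) did not pass, nor did Atp5s (0.15), which encodes a coupling factor.

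Levels per exon length differed far more between subunits than between groups. In controls the highest normalized count per kilobase of exon belonged to Atp5b (10388), Cox4i1 (6208), Cox6b1 (5664), Uqcr11 (4609) and Atp5g3 (4090.2). The lowest belonged to Atp5s (82.0), Atp5l (117), Cox7a1 (196), Cycs (476) and Atp5g1 (579). For Atp5l the annotated exons sum to 6443 bases, which lowers its value on this scale. Across the 44 subunits, Spearman's rho of the log2 fold change was 0.16 with exon length and 0.048 with the mean normalized count (0.023 and -0.105 over all genes tested), given as a description, since subunits are not independent replicates.

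**Figure D3:**
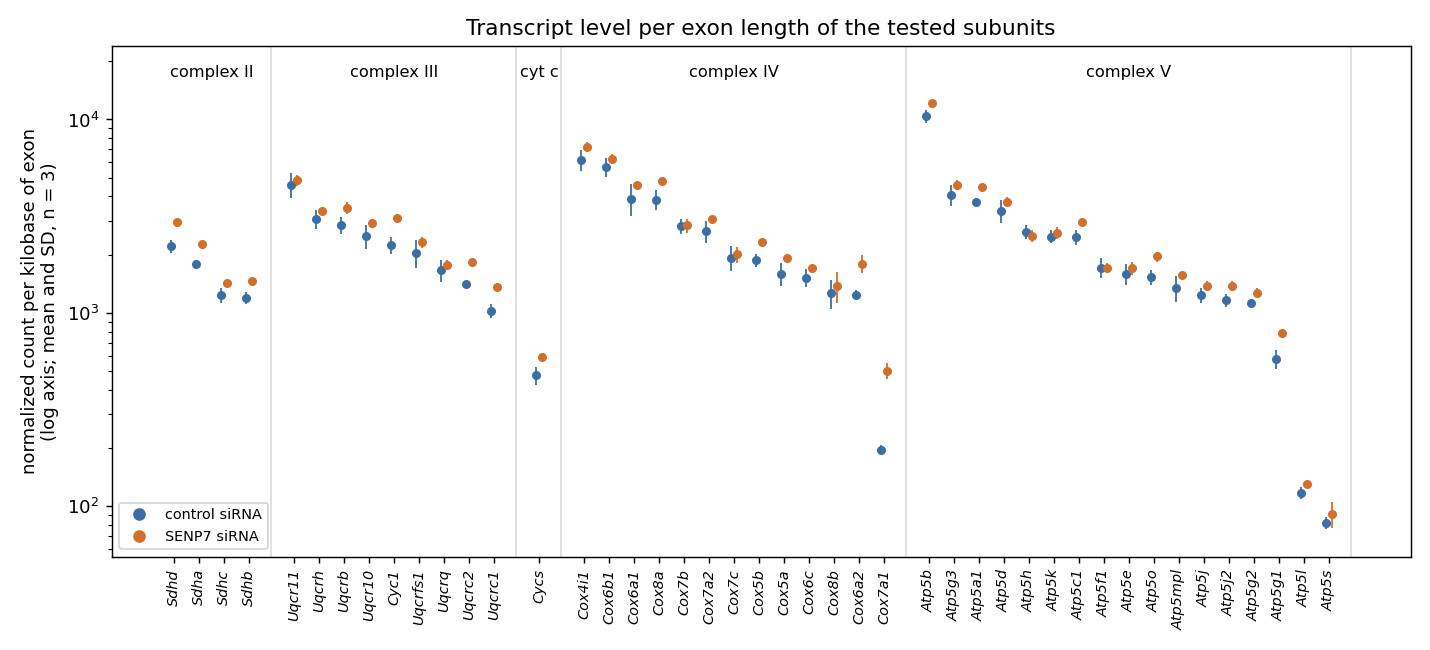
Normalized count per kilobase of exon (log axis; mean and SD, n = 3 libraries per group) for the 44 tested subunits, ordered within each complex by the level in controls. Atp5b is the highest and Atp5s the lowest, and Cox7a1 shows the widest gap between control (blue) and SENP7 siRNA (orange).

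Replicate 3 stood low across the complexes within both groups. Control replicate 3 was the lowest control for 40 of 44 subunits (90.9%, against 41.1% of all genes tested), and SENP7 replicate 3 was the lowest of its group for 37 (84.1%, against 42.0%). In 34 subunits (77.3%, against 23.6%) both held. Relative to the mean of replicates 1 and 2, the median log2 difference of replicate 3 over the subunits was -0.22 in controls and -0.13 with SENP7 siRNA, against -0.01 and -0.01 over all genes tested. Without control replicate 3 the median log2 fold change of the subunits was 0.14, and 17 subunits were called, the same 17, where 15.8% of all genes were called higher. The subunits not lowest in control replicate 3 were Cox7a1, Cox6a2, Cox5b and Atp5s. For Cox7a1 control replicates 1 and 3 were nearly level (101.8 and 102.1). Cox6a2, Cox5b and Atp5s were lowest in SENP7 replicate 3 within that group. Without SENP7 replicate 3 the median was 0.26 and 15 subunits were called, where 6.69% of all genes were called higher. With the replicate number fitted as a block, 26 subunits were called, where 14.0% of all genes were called higher. The part that the low values of replicate 3 have in these counts was not tested beyond these fits.

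**Figure D4:**
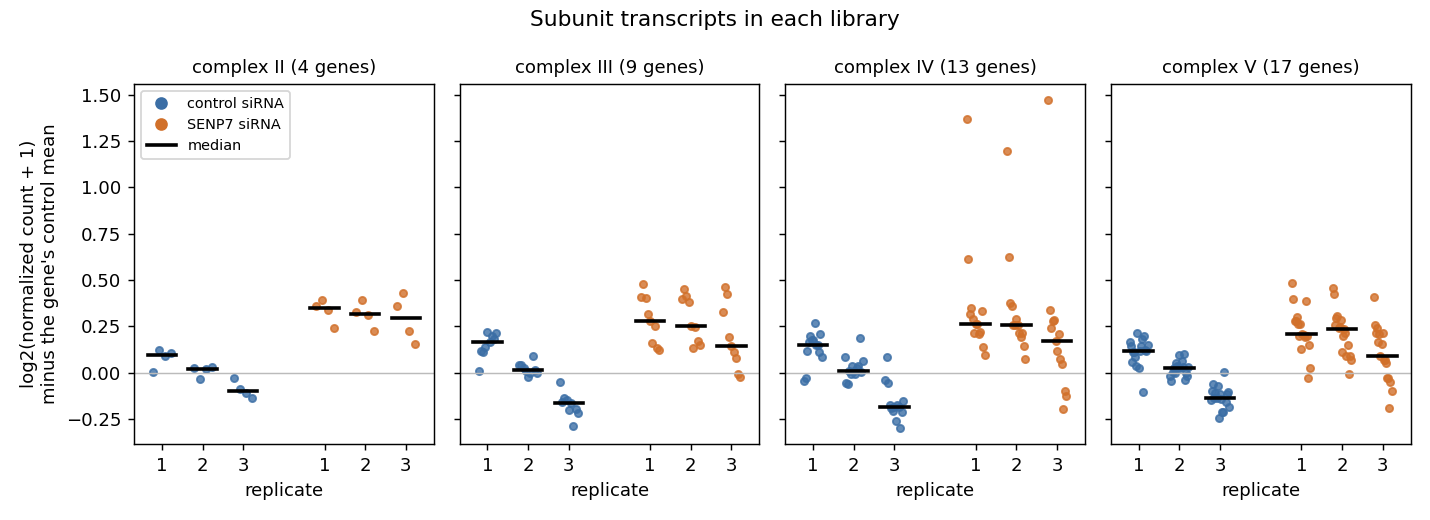
Each point is 1 tested subunit in 1 library, as log2(normalized count + 1) minus that gene's mean over the controls (vertical axis), by complex and replicate; black bars are medians (cytochrome c is not drawn). The medians of control replicate 3 lie below those of the other controls in all 4 complexes, and every SENP7 siRNA median except that of SENP7 replicate 3 in complexes III and V lies above every control median of its complex.

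Against 10.2% of all genes tested called higher, 1 of 5 tested subunits encoded in mitochondrial DNA rose (median log2 fold change 0.25). It was mt-Cytb, the cytochrome b of complex III, which had 137106, 132166 and 120226 in the controls and 175949, 177987 and 170585 with SENP7 siRNA (0.43 ± 0.09, limma adjusted p = 0.011), a call lost when control replicate 2 or either of SENP7 replicates 1 and 2 was left out. The core complex IV subunit mt-Co1 did not pass the test (0.26 ± 0.10, limma adjusted p = 0.0926). In 4 of the 5, all but mt-Co3, every SENP7 siRNA library lay above every control library, against 19.3% of all genes tested. The normalized counts of mt-Co2, mt-Co3 and mt-Atp6 were low, between 31.1 and 127 in all libraries. Per kilobase of exon, the mean control levels of mt-Co2 (143), mt-Co3 (53.6) and mt-Atp6 (46.8) were far below that of mt-Co1 (173996), and mt-Atp8 could not be tested. Whether nearly identical nuclear copies of mitochondrial DNA took reads from these genes was not tested.

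Assembly factors help to build the complexes. The list used here was broad and also held genes with other roles, such as Lrpprc, Atpif1 (an inhibitor of ATP synthase) and Usmg5 (a small protein of ATP synthase itself). Of the 39 genes of this list that were tested, 3 rose (7.69%, against 10.2% of all genes tested). In the same list 1 fell (against 10.7% of all genes), and the median log2 fold change was 0.06. The share that rose was near that of all genes. All 3 rises were among the 23 tested factors of complex IV. Lrpprc, which stabilises mitochondrial mRNAs, rose by 0.40 ± 0.06 (limma adjusted p = 0.00246), and Cox15 and Cox10, which make the heme of complex IV, rose by 0.37 ± 0.06 (adjusted p = 0.00329) and 0.30 ± 0.07 (adjusted p = 0.0187). The call of Cox10 was lost without control replicate 2 or without any 1 of the SENP7 siRNA libraries. Atpaf1, a chaperone for the beta subunit of ATP synthase, fell. Its normalized counts were 246, 220.3 and 264 in the controls and 149, 167 and 149 with SENP7 siRNA, without overlap (-0.65 ± 0.11, limma adjusted p = 0.00421). Hccs, the lyase that attaches heme to cytochrome c, did not pass the test (0.02). The difference between subunits and assembly factors was not tested.

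Of 13 genes for regulators of respiratory gene transcription, 3 were called higher and 1 lower, against 10.2% and 10.7% of all genes tested. Of the 3, Esrrg entered the test through the SENP7 siRNA group alone. Ppargc1a encodes the coactivator PGC-1 alpha and had 55.4, 80.1 and 119 in the controls and 224, 203 and 300.3 with SENP7 siRNA (1.55 ± 0.26, limma adjusted p = 0.00377). Its relative Ppargc1b rose by 0.56 ± 0.10 (limma adjusted p = 0.00396). Of the estrogen-related receptors, Esrrg had 7.06, 3.34 and 17.5 in the controls and 52.3, 54.6 and 42.6 with SENP7 siRNA. Only 1 control reached the normalized count of 10 that the test required in 3 libraries, so that its call is no independent support for a difference. Esrrb fell from 65.6 ± 12.2 to 22.8 ± 8.4 (-1.52 ± 0.27, limma adjusted p = 0.00519), and Esrra did not pass the test (0.05). Nrf1 (0.04), Gabpa (0.06) and Tfam (-0.02), the factors best known for nuclear respiratory genes and mitochondrial DNA, did not pass the test either.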

How the data were processed

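Polyadenylated RNA of 6 C2C12 myotube libraries (3 control, 3 SENP7 siRNA) was sequenced from a directional kit. The submitters' processing notes name build GRCm38.p6 and, as tools, featureCounts 1.6.4, STAR 2.6.1d, Trim Galore 0.6.4, bcl2fastq and DESeq2. Neither the strand setting nor the annotation release is given in the sources used here. In the library columns the authors deposited a normalized signal (normalized count): in each library a single step divides 100% of the positive values into whole reads, within 0.1. The authors also deposited, per the file headers, a log2 fold change, a Wald score and a p-value per gene.

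Limma 3.58.1 (R 4.3.3), with robust empirical Bayes and a mean trend, was fitted on log2(normalized count + 1) with the group as its 1 term, for the 14668 genes that reached a normalized count of 10 in 3 or more libraries. Fold changes are on that scale. Benjamini-Hochberg adjustment ran over these genes, with a threshold of 0.05, and the fit was tested on simulated data. Isoform ratios were log2 ratios of normalized counts + 1 per library, with exact permutation tests. Levels between genes were compared per kilobase of exon.

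Members and gene lists were chosen with earlier results of these data known. Values in every library are given for the muscle forms and their common forms, for the subunits of each complex with the smallest and the largest adjusted p, for other isoform families, and for a few others. The alternatives were edgeR 4.0.16 and DESeq2 1.42.0 on recovered reads, a replicate block, TMM and quantile scaling, other filters (none, or a mean of at least 50) and pseudocounts (0.5 and 5), and each library left out. Promoter letters were read from RefSeq windows, and exon overlaps from GENCODE coordinates, which equal the deposited ones for the subunits.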

Additional observations from a re-analysis of the deposited data

How the results depend on the processing

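The lowest normalized count of a tested subunit was 102, and 6 rows had too few reads to test. With 3 libraries per group, single libraries moved the calls: leaving out 1 library gave 8 to 24 subunits higher in place of 17 and 1504 to 4657 genes called in place of 3062. No alternative called a subunit lower. Without a library left out, the other settings gave 17 to 26 subunits higher, and of the 27 subunits not called 10 passed in at least 1 alternative. The median log2 fold change of the subunits lay between 0.14 and 0.30 over all 15 alternatives. The replicate number was also fitted as a block. Deviations of same-numbered libraries from their group means correlated over genes at 0.13, 0.062 and 0.25 for replicates 1, 2 and 3. Control replicate 3 correlated at -0.15 and -0.16 with SENP7 replicates 1 and 2. SENP7 replicate 3 correlated at -0.22 and -0.10 with control replicates 1 and 2. Control replicate 1 with SENP7 replicate 2 gave 0.14, and control replicate 2 with SENP7 replicate 1 gave 0.061. Within a group the deviations of a gene sum to 0. These correlations are therefore tied to one another, and the negative ones are no separate evidence. Whether libraries of the same number share a batch was not tested. The replicate block gave 26 subunits higher, where 14.0% of all genes were called higher. Paired sign flips of the isoform ratios, exact permutation tests with the same differences, gave p = 0.5 for Cox6a2 over Cox6a1, 0.25 for Cox7a1 over Cox7a2 and 0.5 for Cox8b over Cox8a. With 3 pairs the smallest p that this two-sided test can give is 0.25, so it could not pass the threshold. The differences of these 3 ratios ranged from 0.13 to 0.45, 1.02 to 1.23 and -0.31 to -0.08 with 1 library left out. Some subunits that did not pass the test changed sign. Atp5f1 turned to above 0 with edgeR (0.0015), TMM scaling (0.0009) and quantile normalization (0.0657). With 1 library left out, log2 fold changes ranged from -0.0922 to 0.0751 for Atp5f1, -0.0602 to 0.085 for Cox7b, -0.0452 to 0.165 for Cox7c, -0.0333 to 0.272 for Cox8b and -0.0252 to 0.191 for Uqcr11. The cause of these changes was not tested.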
